A study of Gallus gallus with 12 samples.

Results

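The zinc-finger transcription factor OSR2 was forced into chick limb-bud mesenchymal cells, and the RNA of these cells was compared with that of cells carrying the same retroviral vector without an insert. The comparison takes the 2 libraries titled OSR2 and the 2 titled Control, 4 of the 12 libraries of the series, and covers all genes with enough counts to be tested, 18979 of 21350 listed features. Cells were taken from limb buds of Lohmann Selected Leghorn embryos at embryonic day 4.5, infected before seeding, and kept for 5 days as droplets of 10 µL at high density, in the same medium in every group. Each RNA extract pooled 6 such cultures, and each group has 2 extracts. The OSR2 group carried RCAS-BP(A)-OSR2-3F, and the groups OSR1, EGR1, KLF2 and KLF4, to which OSR2 is also compared, carried RCAS-BP(A)-OSR1-3F, RCAS-BP(A)-EGR1-3F, RCAS-BP(A)-KLF2-3F and RCAS-BP(A)-KLF4-3F. The Control group carried RCAS-BP(A)-empty, so that all groups share infection with this avian retrovirus. In such a vector the insert is driven by the viral promoter in any infected cell, not in a chosen cell type, and its level is not that of the cell's own gene.

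OSR2 and its paralog OSR1 are the vertebrate relatives of odd-skipped, a segmentation gene of Drosophila. In the limb both are found in connective tissue precursors and around forming joints, and in the mouse Osr2 is best known for its part in the growth of palate and teeth. Limb-bud mesenchyme at high density condenses and forms cartilage nodules under the transcription factor SOX9 and its partners SOX5 and SOX6. Cells between the nodules make fibrous connective tissue, and muscle precursors that had entered the bud form fibres.

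Values per library are CPM, the counts of a gene relative to the scaled size of the library, and they are compared between libraries of a gene, not between genes, since gene length was not used here. The log2 fold changes are OSR2 over Control unless another reference is named. They come with a standard error (SE) computed from the fit behind edgeR's quasi-likelihood test, not given by the test itself. The call of a gene required an adjusted p of that test (Benjamini-Hochberg, all 18979 genes) under 0.05. The labels do not say whether the 2 extracts of a group came from separate embryo batches, so the p-values speak only of the spread among these libraries. In bulk RNA, fewer cells of a type and less RNA per cell cannot be told apart.

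The OSR2 libraries held 93496499 and 85072771 counts and the Control libraries 51233721 and 59297870, while the other 8 ran from 74139243 to 106079374. The Control libraries also stood apart in their overall profile. On the first principal component, with 41.8% of the variance, the OSR2 libraries lay at 9.5 and 24.3, the other 8 factor libraries between -7.5 and 38.9, and the Control libraries at -96 and -75.3. Depth and that component therefore move with the comparison of OSR2 with Control, and their part in its results was not tested. For this reason the groups of genes are also set against the mean of the EGR1, KLF2 and KLF4 libraries, which carry an insert and have depths close to those of OSR2. The 2 comparisons share the OSR2 libraries and are set side by side only. A difference from the factors can also be that of factor libraries above or below Control, as for GREM1 and LOXL4 below.

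Over all genes, 9853 (51.9%) were called between OSR2 and Control, 5488 (28.9%) of them higher in OSR2 and 4365 (23%) lower, and the median log2 fold change was 0.04. At least a 2-fold change was seen in 2090 called genes that were higher and 1334 that were lower, and at least a 4-fold change in 312 and 364. Without Control replicate 1 the count of called genes was 6362. Against the mean of EGR1, KLF2 and KLF4, 4686 genes (24.7%) were called, 2550 (13.4%) higher and 2136 (11.3%) lower, with a median of 0.00, and without OSR2 replicate 1 the count was 2565. The counts within each group of genes below are to be read against these shares. Absence of overlap between the OSR2 and Control libraries was common too. It held in 6527 of the 18979 genes tested, counted only where a gene was called, had a symbol and averaged 5 CPM or more. Its share without these filters was not counted. It therefore does not set the genes named below apart.

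OSR2 itself had 2122 and 2077 CPM in the OSR2 libraries, against 10.2 and 13.4 CPM in the Control libraries (log2 fold change 7.47, SE 0.16, adjusted p = 6.9e-08). No library outside the OSR2 group came near this level, with means of 23.5 CPM in OSR1, 29.3 in EGR1, 14.6 in KLF2 and 16.2 in KLF4. Counts from the insert and from the cell's own OSR2 cannot be told apart in this table. OSR1 had 5.86 and 6.52 CPM in the OSR2 libraries, against 4.89 and 4.95 CPM in the Control libraries (log2 fold change 0.33, SE 0.21, adjusted p = 0.21) and was not called. The 3 other inserted factors were read from the cells' own genes in these 4 libraries. KLF4, a Krüppel-like zinc-finger factor, had 29.6 and 35 CPM in OSR2, against 17.1 and 18.8 CPM in Control (log2 fold change 0.85, SE 0.11, adjusted p = 1.7e-04). EGR1, an immediate-early zinc-finger factor, had 143 and 136 CPM in OSR2, against 93.3 and 104 CPM in Control (log2 fold change 0.50, SE 0.15, adjusted p = 0.016), a call that was lost without Control replicate 1 (0.43, adjusted p = 0.11), without OSR2 replicate 1 (0.47, adjusted p = 0.072) and without OSR2 replicate 2 (0.54, adjusted p = 0.051). KLF2 had 54.9 and 57.2 CPM in OSR2, against 27.4 and 39.9 CPM in Control and was not called (log2 fold change 0.74, SE 0.28, adjusted p = 0.056), although DESeq2 called it (0.70, adjusted p = 0.0084). Apart from the inserts, 6 of 13 Krüppel-like factors were higher and 4 lower, and the higher ones numbered 1 without Control replicate 1 and 3 without either OSR2 library. A list of 6 genes held Groucho corepressors, which odd-skipped proteins can recruit in Drosophila, and a homeobox factor that is not such a corepressor. Of the 6, 4 were higher and 0 lower than in Control, the homeobox factor being among the higher ones. Against EGR1, KLF2 and KLF4, 0 were higher and 0 lower, and these counts moved without KLF2 replicate 2.

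The table also lists retroviral entries, among them gag, pol and env, which name the genes for the core proteins, the reverse transcriptase and the envelope protein and which the vector and the chicken's own proviruses share. The env entry had 4696 and 4472 CPM in the OSR2 libraries, against 9695 and 10340 CPM in the Control libraries (log2 fold change -1.13, SE 0.09, adjusted p = 7.9e-06). Summed over 8 such entries the level was 19060 and 17670 CPM in the OSR2 libraries, against 33500 and 33840 CPM in the Control libraries. Of the 8 entries, 1 was higher and 5 were lower in OSR2 than in Control, and 7 were higher than in EGR1, KLF2 and KLF4. Against the single factors, the OSR2 sums lay within the spread of EGR1, with 19680 and 16920 CPM, and above KLF2, with 8691 and 7793 CPM, and KLF4, with 10230 and 10040 CPM. The load of retroviral transcripts thus moves with the comparison with Control, and with that against KLF2 and KLF4 in the opposite direction, and its part in the other results was not tested.

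**Figure D1:**
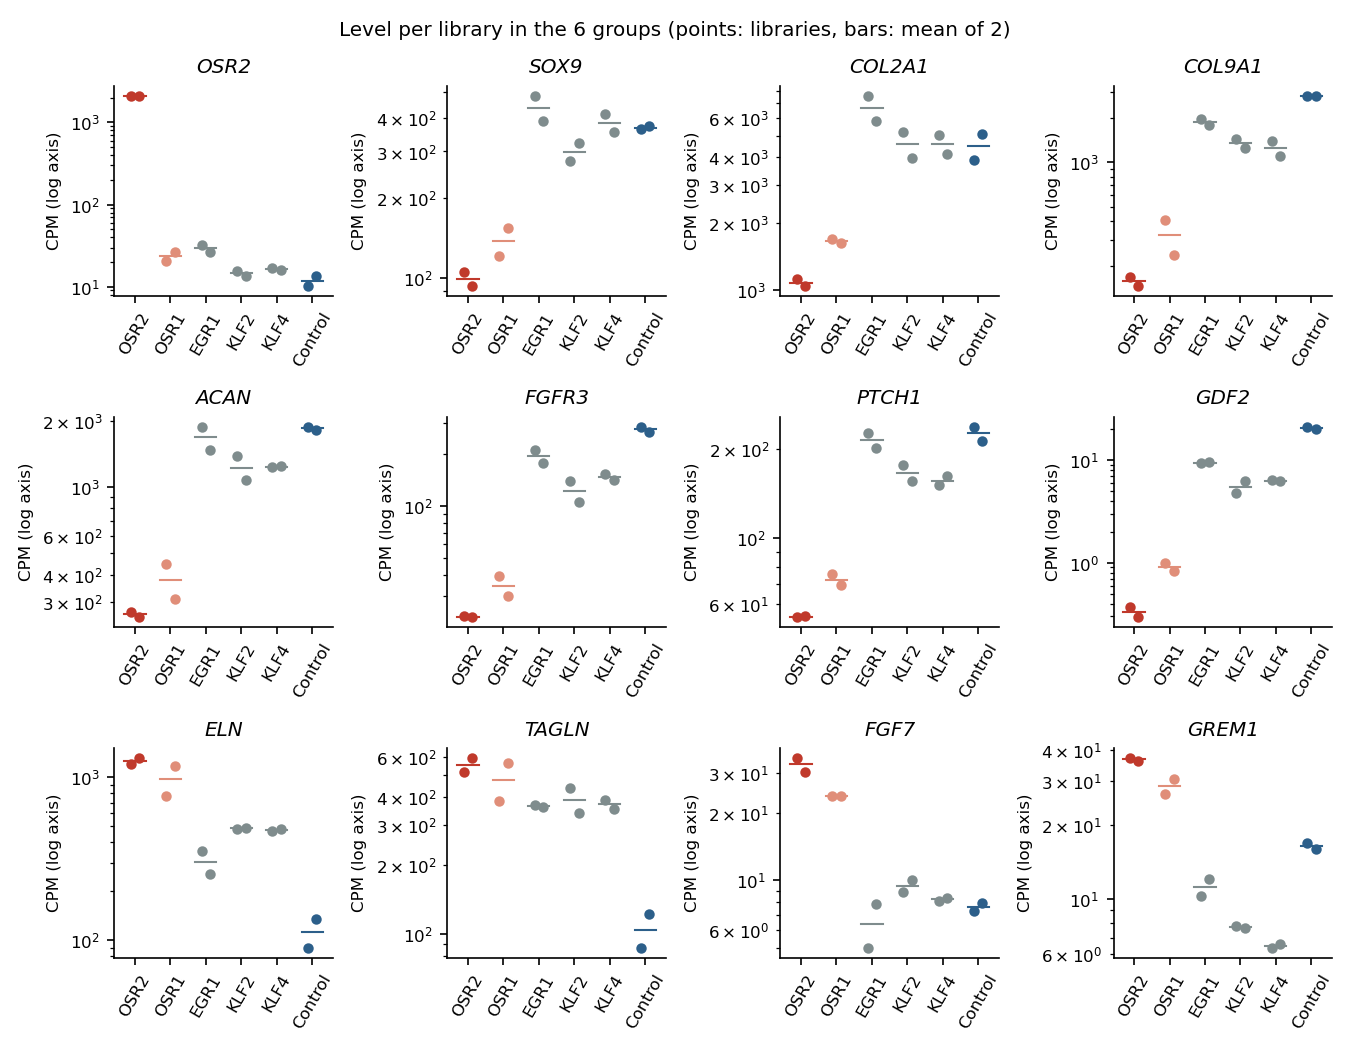
CPM per library (log axis) of 12 genes in the 6 groups, each point a library and each bar the mean of the 2 libraries of a group. OSR2 stands at 2077 CPM or higher in its own group and below 40 CPM elsewhere, the cartilage genes SOX9, COL2A1, COL9A1, ACAN and FGFR3 lie lowest in the OSR2 and OSR1 groups, and ELN and TAGLN lie lowest in Control.

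Cartilage genes were low with OSR2 at every level from transcription factors to matrix. SOX9, which directs chondrocyte formation, had 106 and 93.6 CPM in the OSR2 libraries, against 364 and 374 CPM in the Control libraries (log2 fold change -1.89, SE 0.14, adjusted p = 7.1e-06). The partner factor SOX6 had 4.38 and 3.07 CPM in the OSR2 libraries, against 26.4 and 26.2 CPM in the Control libraries (log2 fold change -2.82, SE 0.16, adjusted p = 9.9e-07). SOX5 had 39.4 and 35.2 CPM in OSR2, against 103 and 96.2 CPM in Control (log2 fold change -1.42, SE 0.11, adjusted p = 6.6e-06). In each of the 3 both OSR2 libraries lay below both Control libraries, with no overlap. Of 11 tested cartilage transcription factors, 0 were higher and 8 lower, with a median log2 fold change of -1.06. BARX2, a homeobox factor of cartilage nodules, fell by 1.58, and NKX3-2, a repressor known from early chondrogenesis, fell by 1.06. FOXA2, a forkhead factor of hypertrophic cartilage, had 0.254 and 0.248 CPM in OSR2, against 1.67 and 2.39 CPM in Control (log2 fold change -3.01, SE 0.37, adjusted p = 1.0e-04). CREB3L2, a transcription factor of the secretory pathway in chondrocytes, fell by 0.47 and TRPS1 by 0.46, the TRPS1 call being lost without Control replicate 1 (-0.40, adjusted p = 0.050) or OSR2 replicate 2 (-0.39, adjusted p = 0.055), and the other 3 members were not called. Relative to EGR1, KLF2 and KLF4, 8 of the 11 were lower and 0 higher, with SOX9 at -1.89 and SOX6 at -1.90, and without calls for NKX3-2 and TRPS1.

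All 7 tested cartilage collagens fell, with a median log2 fold change of -2.61. COL2A1, the main fibrillar collagen of cartilage, had 1116 and 1039 CPM in the OSR2 libraries, against 3887 and 5100 CPM in the Control libraries (log2 fold change -2.06, SE 0.18, adjusted p = 1.9e-05). COL9A1, a chain of the collagen that coats these fibrils, had 168 and 146 CPM in the OSR2 libraries, against 2792 and 2824 CPM in the Control libraries (log2 fold change -4.16, SE 0.22, adjusted p = 3.9e-06). The partner chains COL9A3 (-3.54) and COL9A2 (-2.64) fell too, as did COL11A1 (-1.59), COL11A2 (-2.61) and COL27A1 (-2.05), collagens of the fibril core and of the growth plate. The COL11A2 call was lost without Control replicate 2 (-1.94, adjusted p = 0.061) or OSR2 replicate 2 (-2.47, adjusted p = 0.065). The 7 summed to 3304 and 3151 CPM in the OSR2 libraries, against 14240 and 15640 CPM in the Control libraries. The same 7 were lower than in EGR1, KLF2 and KLF4, with a median of -2.82.

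Of 18 cartilage matrix proteins, 13 fell and 5 rose, with a median of -2.30. ACAN, the large aggregating proteoglycan of cartilage, had 271 and 256 CPM in the OSR2 libraries, against 1874 and 1818 CPM in the Control libraries (log2 fold change -2.81, SE 0.18, adjusted p = 3.8e-06). HAPLN1, the link protein that ties aggrecan to hyaluronan, had 143 and 135 CPM in the OSR2 libraries, against 1260 and 1179 CPM in the Control libraries (log2 fold change -3.13, SE 0.13, adjusted p = 2.3e-07). MATN1, a matrilin of cartilage matrix, had 57.7 and 49.9 CPM in the OSR2 libraries, against 918 and 977 CPM in the Control libraries (log2 fold change -4.14, SE 0.24, adjusted p = 8.7e-06). None of the 3 had an OSR2 library that reached a Control library. EPYC, a small proteoglycan of growth-plate cartilage, had 8.1 and 7.22 CPM in OSR2, against 170.4 and 164 CPM in Control (log2 fold change -4.45, SE 0.19). CLEC3A, a cartilage lectin, had 1.53 and 1.28 CPM in OSR2, against 30.5 and 30.4 CPM in Control (log2 fold change -4.44, SE 0.15). C2orf82, a transmembrane proteoglycan gene of chondrocytes, had 0.38 and 0.425 CPM in OSR2, against 8.89 and 12.9 CPM in Control (log2 fold change -4.76, SE 0.36). LECT1, also called chondromodulin, fell by 2.61, CYTL1 by 2.29, CHAD by 2.36, COMP by 2.13, MATN3 by 2.31, MATN4 by 1.24 and MATN2 by 0.92 on the log2 scale.

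The 5 matrix members that rose were CILP, CILP2, CRTAC1, HAPLN3 and THBS3. CRTAC1, a secreted cartilage acidic protein, had 27.7 and 28.3 CPM in the OSR2 libraries, against 11.8 and 15.8 CPM in the Control libraries (log2 fold change 1.02, SE 0.22, adjusted p = 0.0044). CILP, known from the intermediate layer of cartilage and from tendon, had 25.8 and 27.3 CPM in OSR2, against 16.9 and 17.1 CPM in Control (log2 fold change 0.64, SE 0.11). Without Control replicate 1, and likewise without OSR2 replicate 2, these 2 were called and CILP2, HAPLN3 and THBS3 were not. Compared with EGR1, KLF2 and KLF4, 12 of the 18 were lower and 0 higher.

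Genes for making sulfated sugar chains and hyaluronan went both ways. Of 32 tested, 13 rose and 13 fell, with a median of 0.05. PAPSS2, which makes the sulfate donor, had 44.2 and 40.1 CPM in the OSR2 libraries, against 285 and 277 CPM in the Control libraries (log2 fold change -2.74, SE 0.12, adjusted p = 2.3e-07). The sulfate transporter SLC26A2 had 36.9 and 32.6 CPM in OSR2, against 133 and 114 CPM in Control (log2 fold change -1.83, SE 0.09). UGDH, which makes the glucuronic acid precursor, had 287 and 255 CPM in OSR2, against 1103 and 1038 CPM in Control (log2 fold change -1.98, SE 0.08). CHST11, CSGALNACT1 and CHSY3, enzymes of chondroitin sulfate chains, fell by 1.67, 1.93 and 1.59. Among those that rose, NDST1 (0.96) and HS3ST1 (1.12) modify heparan sulfate, CHST1 (1.04) sulfates keratan sulfate, and CHPF (1.12) is a chondroitin polymerising factor. Over the mean of EGR1, KLF2 and KLF4, 15 were lower and 4 higher. PAPSS2 stood there at -1.86, and CHPF was not called.

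**Figure D2:**
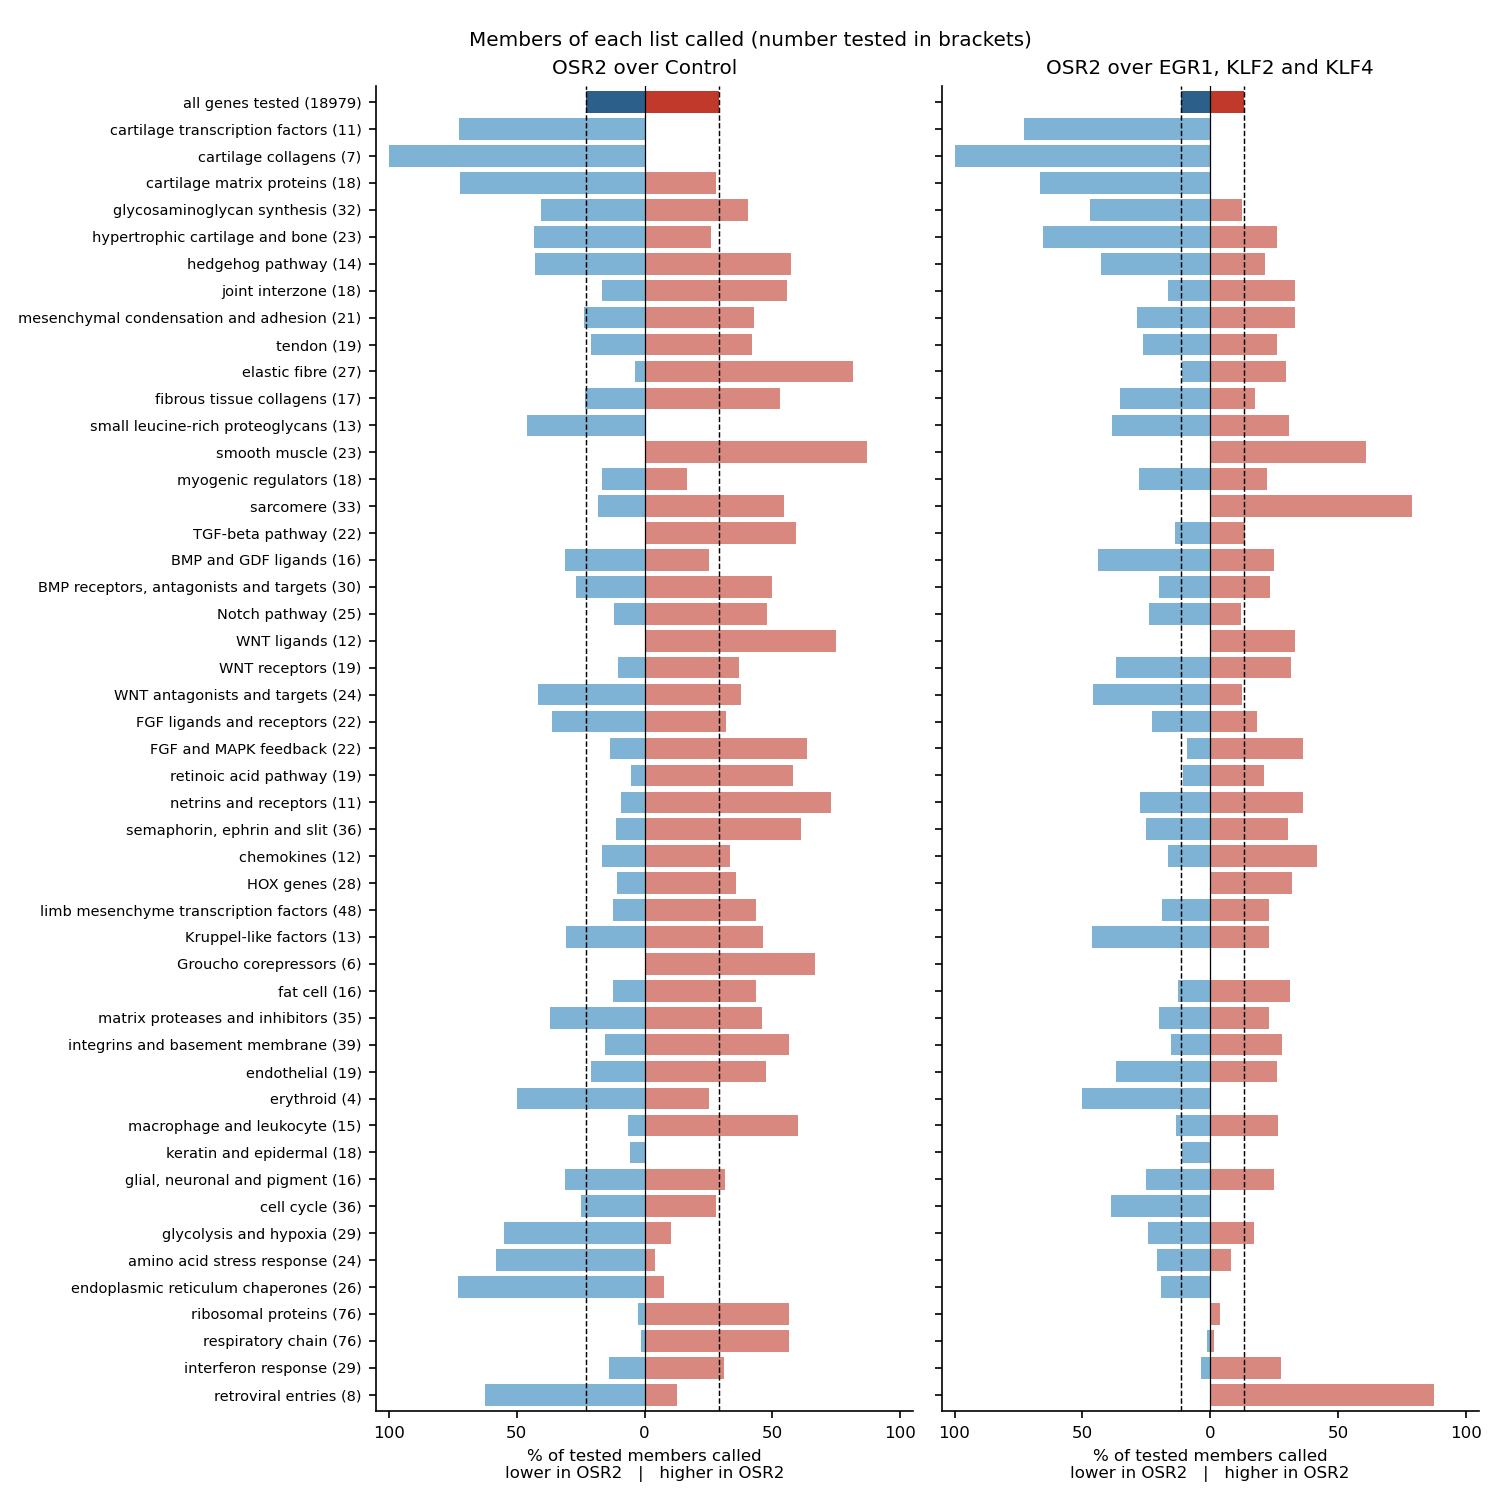
Share of tested members of each gene list that were called higher (right) or lower (left) in OSR2, against Control in the left panel and against the mean of EGR1, KLF2 and KLF4 in the right panel, with all 18979 genes in the top row and dashed lines at their shares (lists with at least 4 tested members). Cartilage lists lie to the left in both panels, smooth muscle lies to the right in both, and the ribosomal and respiratory chain lists lie to the right in the left panel only.

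Markers of later cartilage and of bone split. Of 23 tested, 6 rose and 10 fell, with a median of -0.10. COL10A1, the collagen of hypertrophic chondrocytes, had 4.38 and 4.11 CPM in the OSR2 libraries, against 14.4 and 16.3 CPM in the Control libraries (log2 fold change -1.86, SE 0.18, adjusted p = 2.2e-05). RUNX2, which directs hypertrophy and bone formation, had 9.69 and 9.12 CPM in the OSR2 libraries, against 25.7 and 27.2 CPM in the Control libraries (log2 fold change -1.49, SE 0.09, adjusted p = 1.5e-06). IHH, the hedgehog ligand of prehypertrophic chondrocytes, had 0.454 and 0.862 CPM in OSR2, against 2.93 and 5.46 CPM in Control (log2 fold change -2.68, SE 0.43, adjusted p = 0.0011). The collagenase MMP13 (-1.74), the parathyroid-hormone-like ligand PTHLH (-1.90), the osteoclast-inducing ligand TNFSF11 (-1.69), RUNX3 (-0.97) and the bone matrix proteins SPP1 (-0.90) and IBSP (-1.82) also fell. In contrast PTH1R, the receptor of PTHLH, had 299.5 and 276 CPM in the OSR2 libraries, against 151 and 138 CPM in the Control libraries (log2 fold change 0.99, SE 0.08, adjusted p = 7.1e-06). SOST, a secreted WNT antagonist made by osteocytes, had 3.6 and 3.07 CPM in OSR2, against 0.619 and 0.561 CPM in Control (log2 fold change 2.50, SE 0.19, adjusted p = 4.1e-06). BGLAP, or osteocalcin, rose by 1.65. The other 3 rises, MGP, IFITM5 and DMP1, were called neither without Control replicate 1 nor without OSR2 replicate 2, which left 3 of 6, and the IBSP fall was lost without Control replicate 2 (-1.48, adjusted p = 0.050). The DMP1 call (0.48) held in 0 of the 12 alternatives. With EGR1, KLF2 and KLF4 as the comparison, 15 members were lower and 6 higher, with IBSP at -4.03, SPP1 at -1.97 and SOST at 2.52, and no call for BGLAP. IBSP and SPP1 were thus further below the factors than below Control.

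The hedgehog pathway split by the roles of its members. Hedgehog ligands bind PTCH1 and its coreceptors, free SMO and so turn on GLI factors, which in turn raise PTCH1, HHIP and GLI1. These 3 readout genes were all lower with OSR2. PTCH1 had 54.3 and 54.5 CPM in the OSR2 libraries, against 238 and 214 CPM in the Control libraries (log2 fold change -2.05, SE 0.09, adjusted p = 2.6e-07). HHIP fell by 1.65 and GLI1 (-0.78) by less. The GLI1 call was lost without Control replicate 2 (-0.60, adjusted p = 0.15), OSR2 replicate 1 (-0.78, adjusted p = 0.10) or OSR2 replicate 2 (-0.78, adjusted p = 0.11). The receptor side was higher: the coreceptors GAS1, CDON and BOC rose by 1.43, 1.48 and 0.58, SMO by 0.93, and the transcription factors GLI2 and GLI3 by 1.01 and 1.20. GAS1 had 239 and 228 CPM in OSR2, against 84.1 and 89 CPM in Control, and CDON had 220.5 and 227 CPM in OSR2, against 74.9 and 85.5 CPM in Control, with no overlap between the groups in either. KIF7 (0.83) and DISP1 (1.13) rose, and SUFU (-0.41) and HHAT (-0.58) fell, so that all 14 members were called, 8 higher and 6 lower. Against EGR1, KLF2 and KLF4, 6 were lower and 3 higher. There PTCH1 stood at -1.71, GLI1 at -2.27 and GAS1 at 1.09, but SMO and GLI2 were not called. GLI1 was thus further below the factors than below Control (-0.78).

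**Figure D3:**
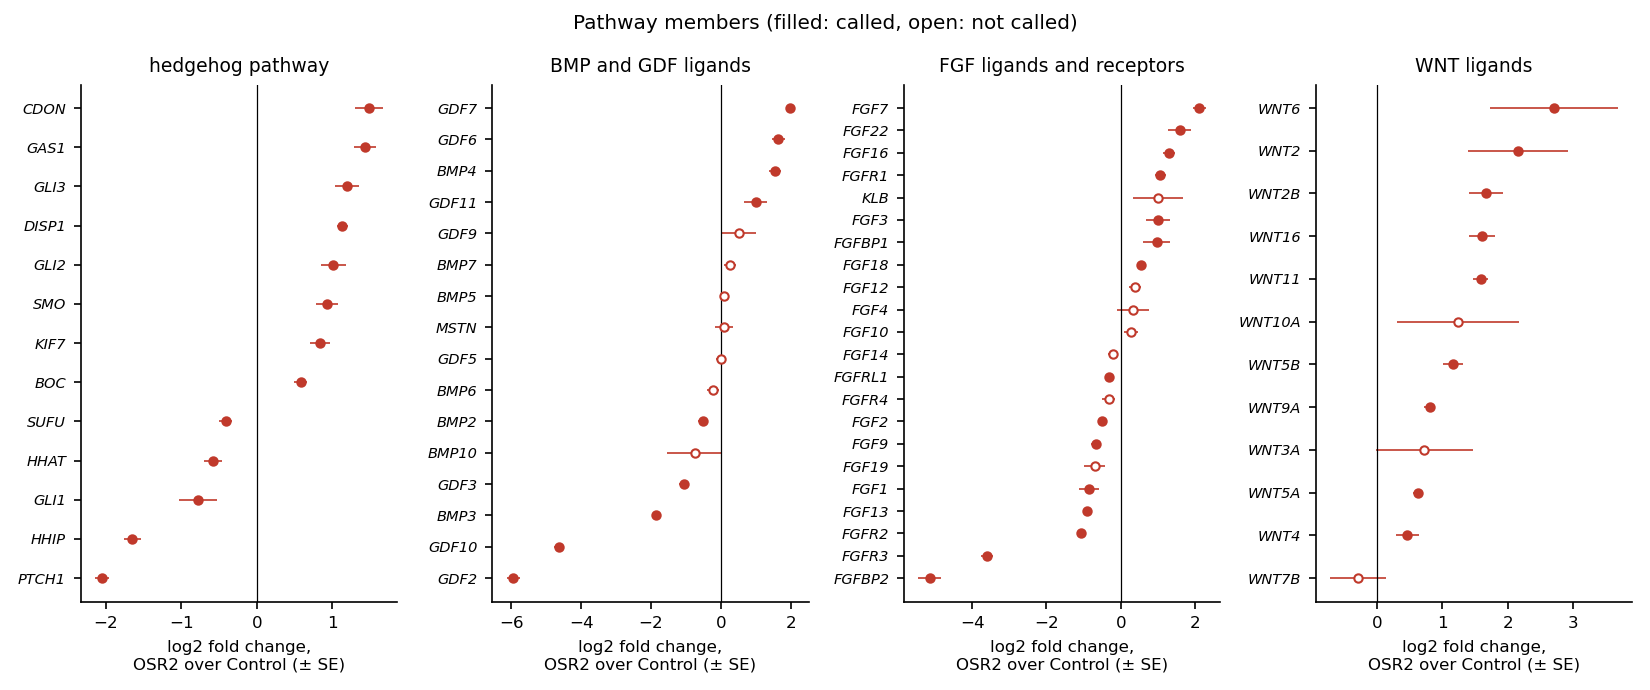
Log2 fold change of OSR2 over Control with its SE for the members reported of the hedgehog, BMP and GDF ligand, FGF and WNT ligand lists, filled where called and open where not. In the hedgehog panel the readout genes PTCH1, HHIP and GLI1 lie below 0 and the coreceptors GAS1, CDON and BOC above it, in the BMP panel GDF2 and GDF10 lie lowest, and no called WNT ligand lies below 0.

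BMP and GDF ligands signal through SMAD proteins and drive both cartilage and joint formation. Of 16 ligands, 4 rose and 5 fell. GDF2, also known as BMP9, had 0.37 and 0.295 CPM in the OSR2 libraries, against 21.3 and 19.9 CPM in the Control libraries (log2 fold change -5.94, SE 0.19, adjusted p = 7.0e-08). GDF10, also known as BMP3B, had 7.14 and 5.69 CPM in the OSR2 libraries, against 166 and 156 CPM in the Control libraries (log2 fold change -4.65, SE 0.13, adjusted p = 6.9e-08). BMP3 (-1.85), GDF3 (-1.06) and BMP2 (-0.53) fell less. BMP4 had 26.6 and 33 CPM in the OSR2 libraries, against 9.6 and 10.9 CPM in the Control libraries (log2 fold change 1.53, SE 0.17, adjusted p = 6.5e-05). GDF7, a ligand of tendon and nervous system, had 26.3 and 26.6 CPM in the OSR2 libraries, against 6.53 and 6.85 CPM in the Control libraries (log2 fold change 1.99, SE 0.12, adjusted p = 9.8e-07), and the joint ligand GDF6 had 12.7 and 12.7 CPM in OSR2, against 4.09 and 4.08 CPM in Control (log2 fold change 1.64, SE 0.19). Relative to EGR1, KLF2 and KLF4, GDF2 (-4.37), GDF10 (-3.53), GDF6 (1.32) and GDF7 (1.28) were called in the same directions, and BMP4 was not called.

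Of 30 BMP receptors, antagonists and targets, 15 rose and 8 fell. BMPR1B, the receptor that mediates condensation, had 10.4 and 11.1 CPM in OSR2, against 44.6 and 40.9 CPM in Control (log2 fold change -1.996, SE 0.14, adjusted p = 2.5e-06). The antagonist GREM1 had 37.3 and 36.3 CPM in the OSR2 libraries, against 16.8 and 15.9 CPM in the Control libraries (log2 fold change 1.17, SE 0.11, adjusted p = 1.6e-05). FSTL3, a follistatin-like antagonist, rose by 2.70 and NBL1 by 1.10, while CHRDL1 and CHRDL2 fell by 1.33 and 1.22. Among readouts of SMAD signalling, SMAD6 (1.30), SMAD9 (1.49), MSX2 (1.25), ID2 (0.75) and ID4 (0.67) rose. ID1 rose by 2.18, a call that was lost without Control replicate 1 (1.83, adjusted p = 0.094) and without OSR2 replicate 2 (1.93, adjusted p = 0.059). Against EGR1, KLF2 and KLF4 the antagonist GREM1 (2.16) was higher and BMPR1B (-1.60) was lower, whereas SMAD6, MSX2 and ID1 were not called.

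FGFs act through receptor tyrosine kinases, of which FGFR3 marks chondrocytes. FGFR3 had 23.1 and 22.8 CPM in the OSR2 libraries, against 288 and 268 CPM in the Control libraries (log2 fold change -3.60, SE 0.15, adjusted p = 5.6e-07). FGFR2, found in condensations, had 376 and 368 CPM in OSR2, against 795 and 763 CPM in Control (log2 fold change -1.06, SE 0.10), and FGFR1, the receptor of undifferentiated mesenchyme, had 819 and 893 CPM in OSR2, against 385 and 437 CPM in Control (log2 fold change 1.06, SE 0.15). Of the 3 receptors, then, FGFR1 was higher with OSR2 and the other two were lower. FGFBP2, an FGF binding protein, had 2.3 and 1.97 CPM in the OSR2 libraries, against 71.5 and 79 CPM in the Control libraries (log2 fold change -5.13, SE 0.31, adjusted p = 1.2e-05). The ligand FGF7, made by connective tissue cells, had 35.2 and 30.5 CPM in the OSR2 libraries, against 7.3 and 7.91 CPM in the Control libraries (log2 fold change 2.11, SE 0.18, adjusted p = 9.9e-06). In the whole list of 22, 7 rose, among them FGF16 (1.28), FGF18 (0.54) and FGF22 (1.58), and 8 fell, among them FGF2 (-0.51), FGF9 (-0.67) and FGF13 (-0.91). Of 22 feedback and response genes of FGF and MAP kinase signalling, 14 rose and 3 fell, while DESeq2 called 5 falls. The feedback inhibitors SPRY2 (1.44) and SPRY1 (1.16), the phosphatases DUSP1 (1.21), DUSP4 (1.15) and DUSP6 (0.80), and the response factors ETV4 (1.14) and ETV5 (1.49) rose. Without OSR2 replicate 2, 1 of the 3 falls was called. Compared with EGR1, KLF2 and KLF4, FGFR3 (-2.73), FGFR2 (-0.85), FGFBP2 (-4.77) and FGF7 (2.05) were called in the same directions, 8 feedback and response genes were higher (5 without either OSR2 library) and 2 lower (1 without OSR2 replicate 1, EGR1 replicate 2 or KLF4 replicate 1, 0 without OSR2 replicate 2), the higher ones including SPRY1 (1.01) and SPRY2 (0.73), and FGFR1 and ETV4 were not called.

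WNT ligands rose as a list: 9 of 12 were higher and 0 lower, with a median log2 fold change of 1.20. WNT11, a ligand of limb mesenchyme, had 251 and 234 CPM in the OSR2 libraries, against 82.7 and 78.6 CPM in the Control libraries (log2 fold change 1.59, SE 0.12, adjusted p = 3.5e-06). WNT16 had 15.6 and 21.9 CPM in OSR2, against 6.57 and 5.79 CPM in Control (log2 fold change 1.60, SE 0.20), and WNT5B had 162 and 187 CPM in OSR2, against 69.8 and 86.2 CPM in Control (log2 fold change 1.16, SE 0.16). WNT5A, which patterns limb outgrowth, rose by 0.63, WNT9A by 0.81 and WNT2B by 1.68. WNT2, WNT4 and WNT6 were called too, but WNT4 lost its call without any of the 4 libraries, WNT2 without either Control library or OSR2 replicate 1, and WNT6 without Control replicate 1 or either OSR2 library. With 1 library left out 6 or 7 of the 12 were called, and DESeq2 called 7, leaving out WNT2 and WNT4. Of 19 receptors, 7 rose, among them FZD4, which had 163 and 187 CPM in the OSR2 libraries, against 51.6 and 47.4 CPM in the Control libraries (log2 fold change 1.82, SE 0.09, adjusted p = 4.5e-07), and 2 fell. LGR4, a receptor for R-spondins, fell by 0.52, and the fall of LGR5 was lost without either Control library or OSR2 replicate 2, which left 1. Of 24 antagonists and targets, 9 rose and 10 fell, with 5 rises called without OSR2 replicate 2. FRZB, a secreted WNT antagonist of cartilage, had 443 and 397 CPM in OSR2, against 924 and 945 CPM in Control (log2 fold change -1.16, SE 0.10), RNF43 fell by 2.19 and TCF7 by 1.24, while AXIN2, a common target of beta-catenin, had 32 and 32 CPM in OSR2, against 20.5 and 21.2 CPM in Control (log2 fold change 0.62, SE 0.09). Over the mean of EGR1, KLF2 and KLF4, 4 ligands were higher (2 without OSR2 replicate 2) and 0 lower. There, WNT11 (2.05), WNT16 (1.27) and FZD4 (1.02) were higher, RNF43 (-1.95) was lower, and AXIN2 was not called.

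Of 22 genes of the TGF-beta pathway, 13 rose and 0 fell. TGFBR3, the type III receptor, had 121 and 118 CPM in the OSR2 libraries, against 60.4 and 52.8 CPM in the Control libraries (log2 fold change 1.08, SE 0.09, adjusted p = 5.9e-06), TGFBR2 had 101 and 112 CPM in OSR2, against 58 and 58.1 CPM in Control (log2 fold change 0.88, SE 0.12), and the ligand TGFB3 had 528 and 577 CPM in OSR2, against 352 and 384 CPM in Control (log2 fold change 0.59, SE 0.08). SMAD4, the partner of all receptor-regulated SMADs, had 44.6 and 48.5 CPM in OSR2, against 14.7 and 18.5 CPM in Control (log2 fold change 1.49, SE 0.21). TGFB1 rose by 1.35, a call that was lost without Control replicate 1 (1.03, adjusted p = 0.17), OSR2 replicate 1 (1.48, adjusted p = 0.053) or OSR2 replicate 2 (1.23, adjusted p = 0.11). With EGR1, KLF2 and KLF4 as the comparison, 3 were higher and 3 lower, and without OSR2 replicate 1 it was 1 each way. TGFBR3 stood there at 1.03, and SMAD4 was not called.

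In the retinoic acid pathway 11 of 19 genes rose and 1 fell. ALDH1A3, which makes retinoic acid, had 378 and 363 CPM in the OSR2 libraries, against 115 and 119 CPM in the Control libraries (log2 fold change 1.66, SE 0.11, adjusted p = 1.6e-06), and ALDH1A2, the main limb enzyme of this step, had 56.9 and 53.7 CPM in OSR2, against 27.8 and 25.8 CPM in Control (log2 fold change 1.04, SE 0.11). The binding proteins CRABP1 and CRABP2 rose by 1.17 and 1.87, the receptor RARA by 1.37 and the degrading enzyme CYP26B1 by 0.67. The fall, RBP4, was not called without Control replicate 1 or either OSR2 library. Against EGR1, KLF2 and KLF4, 4 genes of the pathway were higher and 2 lower (0 without OSR2 replicate 1, 1 without OSR2 replicate 2, EGR1 replicate 1, KLF2 replicate 1 or either KLF4 library). The higher ones included ALDH1A2 (1.23), ALDH1A3 (0.85) and CRABP1 (0.67), and RARA was not called. In the Notch pathway 12 of 25 rose and 3 fell, and without Control replicate 1, as without OSR2 replicate 2, it was 6 and 1. LFNG, which modifies the receptor, had 147 and 198 CPM in OSR2, against 54 and 61.9 CPM in Control (log2 fold change 1.57, SE 0.16), and HEY1, a target, had 19 and 20.4 CPM in OSR2, against 31.3 and 34 CPM in Control (log2 fold change -0.73, SE 0.11). Relative to EGR1, KLF2 and KLF4, 3 were higher and 6 lower. There, HEY1 was lower (-0.82) and LFNG was not called.

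Most elastic fibre genes were higher with OSR2: 22 of 27 rose and 1 fell, with a median of 0.91. ELN, the elastin precursor, had 1208 and 1324 CPM in the OSR2 libraries, against 89.4 and 135 CPM in the Control libraries (log2 fold change 3.49, SE 0.25, adjusted p = 2.4e-05). FBLN5, a fibulin that guides elastin onto microfibrils, had 497 and 462 CPM in the OSR2 libraries, against 124 and 128 CPM in the Control libraries (log2 fold change 1.93, SE 0.07, adjusted p = 7.0e-08). LTBP2, which binds the same microfibrils, had 687 and 695 CPM in the OSR2 libraries, against 126 and 141 CPM in the Control libraries (log2 fold change 2.37, SE 0.14, adjusted p = 1.2e-06). In these 3 genes no OSR2 library overlapped a Control library. FBN1, the main microfibril protein, rose by 1.45, MFAP5 by 1.31, MFAP4 by 2.15, EMILIN3 by 1.39, and the crosslinking enzymes LOX and LOXL1 by 0.91 and 0.84. EMILIN1 had 26.8 and 29 CPM in OSR2, against 2.1 and 3.73 CPM in Control (log2 fold change 3.25, SE 0.71, adjusted p = 0.0071), a call that was lost without Control replicate 1 (2.90, adjusted p = 0.063). The fall, LOXL4 (-1.37), was lost without Control replicate 2 (-0.85, adjusted p = 0.088), OSR2 replicate 1 (-1.37, adjusted p = 0.052) or OSR2 replicate 2 (-1.36, adjusted p = 0.059). Compared with EGR1, KLF2 and KLF4, 8 were higher and 3 lower. ELN (1.62), FBLN5 (1.35) and LTBP2 (0.91) were higher there, FBN1 and MFAP5 were not called, and LOXL4 stood at -4.38.

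Of 17 collagens of fibrous tissue, 9 rose and 4 fell. COL3A1, the collagen of loose connective tissue, had 1647 and 1563 CPM in the OSR2 libraries, against 648 and 684 CPM in the Control libraries (log2 fold change 1.27, SE 0.08, adjusted p = 1.9e-06). COL1A1 had 2480 and 2815 CPM in the OSR2 libraries, against 793 and 1078 CPM in the Control libraries (log2 fold change 1.501, SE 0.29, adjusted p = 0.0033). The call of its partner chain COL1A2 (0.47) was lost without Control replicate 1 (0.41, adjusted p = 0.10) or OSR2 replicate 2 (0.39, adjusted p = 0.10). COL6A3 rose by 0.88, and COL15A1, COL24A1 and COL8A2 fell by 1.74, 1.76 and 0.91. Over the mean of EGR1, KLF2 and KLF4, COL3A1 (0.69) was higher, COL15A1 (-1.27) and COL8A2 (-1.67) were lower, and COL1A1 and COL1A2 were not called. Small leucine-rich proteoglycans, which bind collagen fibrils, had 0 of 13 members higher and 6 lower than in Control, but 4 higher and 5 lower than in EGR1, KLF2 and KLF4. EPYC and CHAD, among the members lower than in Control, are also counted among the cartilage matrix proteins above. DCN, or decorin, had 842 and 792 CPM in OSR2, against 1142 and 1190 CPM in Control (log2 fold change -0.51, SE 0.08), and OMD, or osteomodulin, fell by 2.49. Without OSR2 replicate 2, 1 member was higher than in Control.

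FN1, or fibronectin, had 10830 and 12230 CPM in the OSR2 libraries, against 3689 and 3663 CPM in the Control libraries (log2 fold change 1.65, SE 0.17, adjusted p = 4.0e-05). Of 39 integrins and basement membrane genes, 22 rose and 6 fell. The type IV collagen chains COL4A1 and COL4A2 rose by 1.37 and 1.60, while COL4A5 fell by 0.96. ITGA8, an integrin subunit of mesenchyme and smooth muscle, had 411 and 373 CPM in OSR2, against 159 and 159.9 CPM in Control (log2 fold change 1.30, SE 0.10). LAMC3, a laminin chain, had 12.8 and 15.6 CPM in OSR2, against 1.46 and 2.18 CPM in Control (log2 fold change 2.96, SE 0.24). With EGR1, KLF2 and KLF4 as the comparison, 11 were higher and 6 lower, with ITGA8 at 1.16, LAMC3 at 1.11 and COL4A2 at 0.48, and without OSR2 replicate 2 the count of lower members was 3. Of 35 matrix proteases and inhibitors, 16 rose and 13 fell, with 8 falls without Control replicate 1 and the same number without OSR2 replicate 2. HTRA3, a secreted serine protease, had 169.7 and 142 CPM in the OSR2 libraries, against 25.1 and 28.4 CPM in the Control libraries (log2 fold change 2.54, SE 0.11, adjusted p = 2.7e-07). ADAMTS15 had 213 and 209.9 CPM in OSR2, against 38.6 and 43.1 CPM in Control (log2 fold change 2.37, SE 0.14), and the inhibitor TIMP4 had 32.2 and 28.5 CPM in OSR2, against 106 and 108 CPM in Control (log2 fold change -1.82, SE 0.08). The same comparison against EGR1, KLF2 and KLF4 gave 1.83 for HTRA3, 0.56 for ADAMTS15 and -1.29 for TIMP4.

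Smooth muscle genes rose, 20 of 23, with 0 falls and a median of 1.26. ACTA2, smooth muscle actin, had 1838 and 2160 CPM in the OSR2 libraries, against 692 and 786 CPM in the Control libraries (log2 fold change 1.44, SE 0.12, adjusted p = 9.7e-06). TAGLN, which binds actin, had 513 and 596 CPM in the OSR2 libraries, against 86.2 and 122 CPM in the Control libraries (log2 fold change 2.42, SE 0.21, adjusted p = 5.8e-05). CNN1, or calponin, had 28.1 and 34 CPM in the OSR2 libraries, against 6.17 and 6.9 CPM in the Control libraries (log2 fold change 2.25, SE 0.14, adjusted p = 1.3e-06). The OSR2 libraries lay above the Control libraries in all 3 without overlap. SRF, the transcription factor of this gene set, rose by 1.54, and MYH11, the heavy chain of differentiated smooth muscle, by 1.40, whereas MYOCD, its coactivator, had 6.88 and 6.85 CPM in OSR2, against 5.21 and 5.98 CPM in Control (log2 fold change 0.29, SE 0.14, adjusted p = 0.095) and was not called. The 23 summed to 7270 and 7732 CPM in the OSR2 libraries, against 3590 and 3956 CPM in the Control libraries. Against EGR1, KLF2 and KLF4, 14 were higher and 0 lower, with ACTA2 at 0.72, CNN1 at 0.94 and MYOCD at 1.03. Without OSR2 replicate 1, 1 member was lower than in Control, and without EGR1 replicate 1 or KLF2 replicate 1, 1 was lower in the comparison with the factors.

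**Figure D4:**
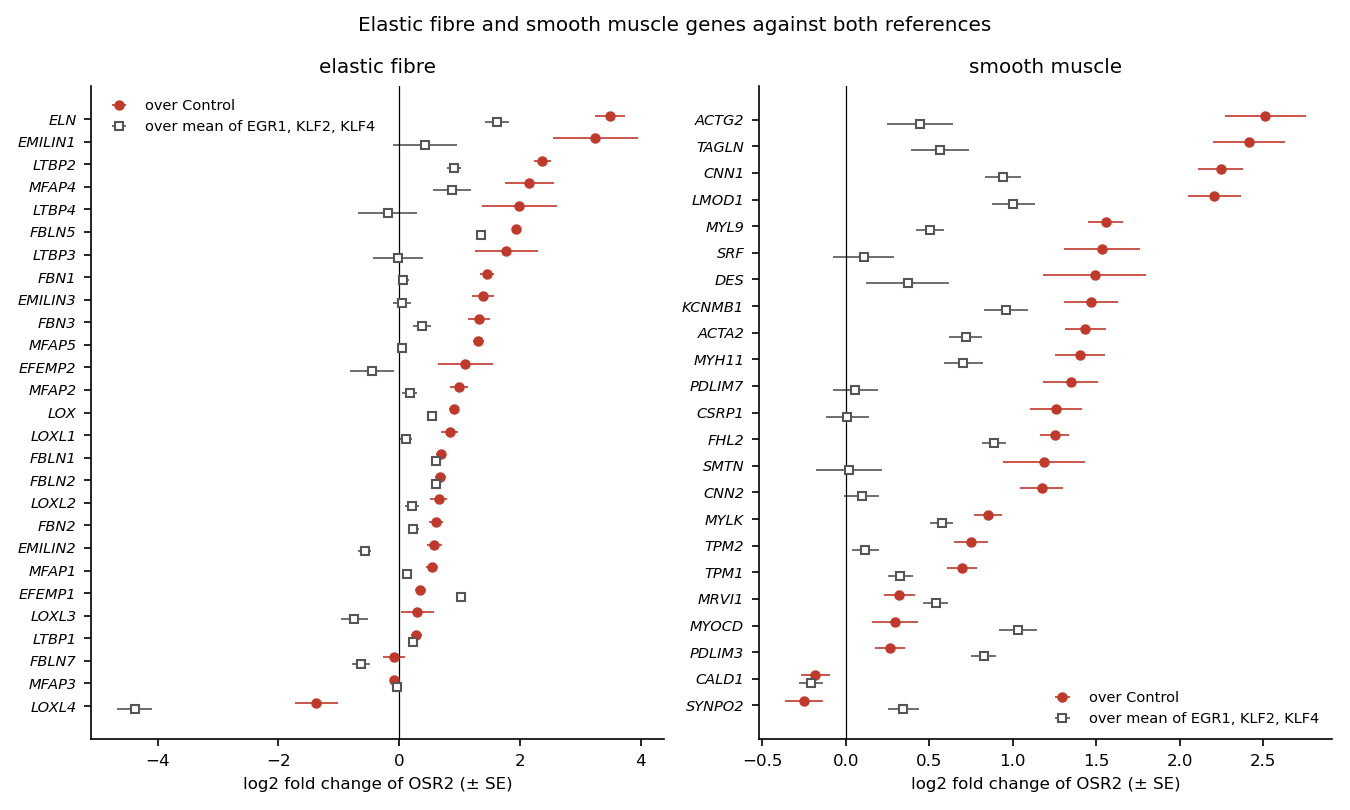
Log2 fold change with its SE of the elastic fibre genes (left) and the smooth muscle genes (right), against Control (filled) and against the mean of EGR1, KLF2 and KLF4 (open). ELN has the largest value of its list against Control (3.49), most other members lie nearer 0 against the factors, and LOXL4 lies lowest.

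Tendon and joint genes moved in both directions. Of 19 tendon genes, 8 rose and 4 fell. SCX, the tendon transcription factor, had 7.39 and 7.33 CPM in the OSR2 libraries, against 1.44 and 1.73 CPM in the Control libraries (log2 fold change 2.21, SE 0.50, adjusted p = 0.0075), a call that was lost without Control replicate 1 (2.09, adjusted p = 0.060). TNMD, a membrane protein of tendon cells, had 158 and 168 CPM in OSR2, against 106 and 118 CPM in Control (log2 fold change 0.54, SE 0.09), and the tendon factor MKX had 148 and 129.8 CPM in OSR2, against 218 and 214 CPM in Control (log2 fold change -0.64, SE 0.09). THBS4, a thrombospondin of tendon and cartilage, had 280.4 and 293 CPM in the OSR2 libraries, against 1096 and 1120 CPM in the Control libraries (log2 fold change -1.95, SE 0.11, adjusted p = 8.6e-07). Relative to EGR1, KLF2 and KLF4, THBS4 (-2.12) was lower and SCX, TNMD and MKX were not called. Of 18 joint interzone genes, 10 rose and 3 fell, with 6 rises without Control replicate 1. GDF5, the ligand that marks joint interzones, had 49.5 and 38.4 CPM in OSR2, against 44.6 and 42.8 CPM in Control (log2 fold change 0.01, SE 0.15, adjusted p = 0.96). SIX2, found around joints and tendons, had 47.6 and 52.9 CPM in OSR2, against 21.5 and 27 CPM in Control (log2 fold change 1.05, SE 0.14), and ENPP2, or autotaxin, fell by 1.97. Compared with EGR1, KLF2 and KLF4, SIX2 was higher (0.59), ENPP2 was lower (-1.03) and GDF5 was not called. A list of 21 genes of mesenchymal condensation and of cell adhesion also held CDH5, a cadherin of vessel lining. CDH2, or N-cadherin, had 116 and 119.8 CPM in OSR2, against 55 and 55.2 CPM in Control (log2 fold change 1.09, SE 0.09), while NRCAM stood at -2.19 and SDC4 at -1.46. Of the 21, 9 rose, CDH5 among them, and 5 fell. Against the factors 7 were higher, or 4 without either OSR2 library, and 6 lower, or 3 without OSR2 replicate 2.

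Transcription factors of limb mesenchyme included 48 tested genes, of which 21 rose and 6 fell. PRRX1, which marks limb mesenchyme and its connective tissue progenitors, had 525 and 560.4 CPM in the OSR2 libraries, against 166 and 188 CPM in the Control libraries (log2 fold change 1.62, SE 0.09, adjusted p = 7.0e-07). TBX3, a T-box repressor, had 70.6 and 72.2 CPM in OSR2, against 30.5 and 31.9 CPM in Control (log2 fold change 1.20, SE 0.12), and SHOX2, a factor of the proximal limb, had 11.1 and 11.6 CPM in OSR2, against 3.04 and 4.56 CPM in Control (log2 fold change 1.58, SE 0.19). PAX1 and PAX9, paired-box factors of the shoulder girdle and the digits, rose by 2.12 and 1.48. TBX5, which marks the forelimb, had 213 and 181 CPM in OSR2, against 184 and 199 CPM in Control (log2 fold change 0.04, SE 0.12, adjusted p = 0.79), and TBX4, which marks the hindlimb, had 219 and 220.2 CPM in OSR2, against 149 and 148 CPM in Control (log2 fold change 0.57, SE 0.08, adjusted p = 2.6e-04), so transcripts of both markers were present in all 4 libraries. ALX1, a homeobox factor of cranial and limb mesenchyme, had 0.275 and 0.307 CPM in OSR2, against 2.93 and 2.67 CPM in Control (log2 fold change -3.26, SE 0.23), and DLX5, an early skeletal factor, had 13.7 and 14.3 CPM in OSR2, against 19.8 and 25.8 CPM in Control (log2 fold change -0.71, SE 0.16). Over the mean of EGR1, KLF2 and KLF4, PAX1 (1.85) and PAX9 (1.33) were higher, ALX1 (-1.33) and DLX5 (-1.37) were lower, and TBX3 was not called. Of 28 HOX genes, which set position along the limb, 10 rose, with HOXD8 at 1.00 and HOXD9 at 0.70, and 3 fell. Without Control replicate 1 these counts were 6 and 1. Of the 3 falls, 1 was called without Control replicate 2 or OSR2 replicate 2. With the factors as the comparison, 9 HOX genes were higher and 0 lower, with 1 higher and 1 lower without OSR2 replicate 1, 4 and 1 without OSR2 replicate 2, and 2 lower without KLF2 replicate 1.

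Guidance molecules were mostly higher with OSR2 than with Control, and went both ways against the other factors. NTN1, a secreted netrin, had 87.1 and 102 CPM in the OSR2 libraries, against 9.12 and 12.6 CPM in the Control libraries (log2 fold change 3.12, SE 0.34, adjusted p = 2.3e-04). NTN3 had 16.1 and 15.3 CPM in OSR2, against 3.53 and 4.19 CPM in Control (log2 fold change 2.02, SE 0.21), and NTNG1, a membrane-bound netrin, had 98.4 and 91.4 CPM in OSR2, against 36.5 and 35.5 CPM in Control (log2 fold change 1.40, SE 0.08). Of 11 netrins and receptors, 8 rose and 1, the receptor UNC5C (-0.73), fell. With EGR1, KLF2 and KLF4 as the comparison, 4 were higher (2 without OSR2 replicate 2) and 3 lower. There, NTN1 (1.16; 1.04, adjusted p = 0.086, without OSR2 replicate 2) and NTNG1 (1.18) were higher, while NTN3 (-1.29) and UNC5C (-1.11) were lower. Of 36 semaphorin, ephrin and slit genes, 22 rose and 4 fell. EFNB2, a membrane ephrin, had 79.3 and 77.6 CPM in OSR2, against 23.2 and 26.4 CPM in Control (log2 fold change 1.66, SE 0.10), its receptor EPHB3 had 217 and 254 CPM in OSR2, against 68 and 80.1 CPM in Control (log2 fold change 1.67, SE 0.19), and SEMA3E, a secreted semaphorin, had 4.82 and 4.02 CPM in OSR2, against 19.1 and 18.4 CPM in Control (log2 fold change -2.08, SE 0.15). Against the factors, 11 of the 36 were higher and 9 lower, or 4 lower without OSR2 replicate 1. EFNB2 (0.71) was higher there, SEMA3E (-1.42) was lower and EPHB3 was not called. Among 12 chemokines and receptors, 4 rose and 2 fell. CX3CL1 had 12.8 and 15.4 CPM in the OSR2 libraries, against 2.7 and 3.14 CPM in the Control libraries (log2 fold change 2.27, SE 0.15, adjusted p = 2.0e-06), and CXCL14 had 157 and 179 CPM in the OSR2 libraries, against 385 and 378 CPM in the Control libraries (log2 fold change -1.18, SE 0.07, adjusted p = 1.5e-06). Against the factors CX3CL1 (1.46) was higher, and CXCL14 was not called.

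Markers of other cell types that a limb bud can hold were read as whole lists. The 33 sarcomere genes of striated muscle summed to 2992 and 2933 CPM in the OSR2 libraries, against 2393 and 2479 CPM in the Control libraries, with 18 higher and 6 lower. ACTC1, the actin of developing muscle, had 491 and 490.0 CPM in OSR2, against 447 and 489 CPM in Control (log2 fold change 0.07, SE 0.09, adjusted p = 0.55), MYH15, a slow myosin heavy chain, had 134 and 132 CPM in OSR2, against 68.4 and 68.9 CPM in Control (log2 fold change 0.95, SE 0.09), and TNNT3, fast troponin T, had 47.4 and 45.6 CPM in OSR2, against 118 and 119 CPM in Control (log2 fold change -1.35, SE 0.10). Against EGR1, KLF2 and KLF4, 26 of the 33 were higher and 0 lower, and without OSR2 replicate 1 it was 16 higher. The sarcomere sums of the KLF4 libraries (1672 and 1755 CPM) and KLF2 libraries (2206 and 2044 CPM) lay below those of Control. Those of the EGR1 libraries (2735 and 2541 CPM) lay above Control and below OSR2. In the sum, the difference from KLF2 and KLF4 is thus partly that of libraries below Control. Of 18 regulators of muscle formation, 3 rose and 3 fell. MYOD1, which commits cells to muscle, had 10.8 and 8.78 CPM in OSR2, against 13.3 and 14.6 CPM in Control (log2 fold change -0.51, SE 0.24, adjusted p = 0.099). Of the 3 falls, none was called without Control replicate 1 or OSR2 replicate 2, and 1 without Control replicate 2 or OSR2 replicate 1. DESeq2 called MYOD1 lower (-0.55, adjusted p = 0.048). Against the factors 4 regulators were higher and 5 lower, or 2 and 2 without OSR2 replicate 2.

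The 21 endothelial genes summed to 497 and 528 CPM in the OSR2 libraries, against 520.3 and 509 CPM in the Control libraries, and of the 19 tested 9 were higher and 4 lower. CDH5, the cadherin of vessel lining, had 2.76 and 3.13 CPM in OSR2, against 1.07 and 1.02 CPM in Control (log2 fold change 1.49, SE 0.30), and the adhesion molecule PECAM1 had 64.7 and 54 CPM in OSR2, against 109.7 and 103 CPM in Control (log2 fold change -0.84, SE 0.14). The 15 macrophage and leukocyte genes summed to 67.7 and 66.6 CPM in the OSR2 libraries, against 51.8 and 53.5 CPM in the Control libraries, with 9 higher and 1 lower. PTPRC, or CD45, had 11.1 and 11.7 CPM in OSR2, against 6.42 and 7.16 CPM in Control (log2 fold change 0.75, SE 0.13). The 7 erythroid genes, of which 1 was at 0 in all 4 libraries and 4 were tested, summed to 51.6 and 45.4 CPM in the OSR2 libraries, against 75.7 and 69.7 CPM in the Control libraries. The 18 keratin and epidermal genes summed to 151 and 251 CPM in the OSR2 libraries, against 157 and 168 CPM in the Control libraries, with 0 higher and 1, PERP, lower, and 3 were higher without OSR2 replicate 1. The 18 glial, neuronal and pigment genes summed to 123 and 116 CPM in the OSR2 libraries, against 54.1 and 53.2 CPM in the Control libraries. Of the 16 tested 5 were higher and 5 lower, with 2 lower without Control replicate 1, Control replicate 2 or OSR2 replicate 1. NEFM, a neurofilament chain, had 33 and 28.6 CPM in OSR2, against 6.38 and 6.06 CPM in Control (log2 fold change 2.31, SE 0.15), while SOX10, which defines neural crest and glia, was near 0 with 0.0423 and 0.165 CPM in OSR2, against 0.0563 and 0.264 CPM in Control. The 16 fat cell genes summed to 1197 and 1242 CPM in the OSR2 libraries, against 1079 and 1045 CPM in the Control libraries, with 7 higher and 2 lower. CEBPD, an early adipogenic factor, had 15.1 and 15.9 CPM in OSR2, against 2.7 and 3.4 CPM in Control (log2 fold change 2.34, SE 0.20), and PPARG, the later one, had 4.4 and 4.62 CPM in OSR2, against 7.63 and 8.14 CPM in Control (log2 fold change -0.81, SE 0.17). Relative to EGR1, KLF2 and KLF4, 5 endothelial genes were higher and 7 lower, and 4 glial, neuronal and pigment genes were higher and 4 lower. No erythroid or keratin gene was higher there, 2 erythroid genes were lower, and 2 keratin and epidermal genes were lower, or 1 without OSR2 replicate 1, KLF2 replicate 2 or KLF4 replicate 1. Of the macrophage and leukocyte genes 4 were higher and 2 lower, with 1 higher without OSR2 replicate 1, 2 without OSR2 replicate 2, EGR1 replicate 2 or KLF4 replicate 2, and 0 or 1 lower without any of the 8 libraries but KLF2 replicate 2. Of the fat cell genes 5 were higher, or 2 without OSR2 replicate 2, and 2 lower, or 0 without OSR2 replicate 1 and 1 without OSR2 replicate 2, EGR1 replicate 2 or KLF4 replicate 1. The part of these cells in the other results was not tested.

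Many genes of glycolysis and hypoxia, of the amino acid stress response and of protein folding were lower with OSR2 than with Control. Of 29 genes of glycolysis and hypoxia, 16 fell and 3 rose, with a median of -0.55. LDHA, lactate dehydrogenase, had 187 and 188 CPM in the OSR2 libraries, against 752 and 744 CPM in the Control libraries (log2 fold change -1.99, SE 0.10, adjusted p = 4.2e-07). NDRG1, a hypoxia-responsive gene, had 17.5 and 16.4 CPM in OSR2, against 73.5 and 78 CPM in Control (log2 fold change -2.16, SE 0.11), and P4HA2, a collagen prolyl hydroxylase subunit, had 64.4 and 66.5 CPM in OSR2, against 219 and 220.5 CPM in Control (log2 fold change -1.75, SE 0.07). The peptide hormone ADM was among the rises, with 21.6 and 21.7 CPM in OSR2, against 2.93 and 4.26 CPM in Control (log2 fold change 2.58, SE 0.21). Of 24 genes of the amino acid stress response, 14 fell and 1 rose, with a median of -0.85. ASNS, asparagine synthetase, had 104 and 91.4 CPM in the OSR2 libraries, against 424 and 414 CPM in the Control libraries (log2 fold change -2.10, SE 0.10, adjusted p = 4.5e-07), STC2 had 197 and 186 CPM in OSR2, against 830.4 and 802 CPM in Control (log2 fold change -2.09, SE 0.07), and their activator ATF4 had 647 and 518 CPM in OSR2, against 924 and 967 CPM in Control (log2 fold change -0.70, SE 0.15). Of 26 endoplasmic reticulum chaperones and folding enzymes, 19 fell and 2 rose, with a median of -0.59. SERPINH1, the collagen chaperone HSP47, had 890.1 and 776 CPM in the OSR2 libraries, against 2510 and 2613 CPM in the Control libraries (log2 fold change -1.62, SE 0.09, adjusted p = 6.6e-07), and HSPA5, the chaperone BiP, had 666 and 639.7 CPM in OSR2, against 1335 and 1405 CPM in Control (log2 fold change -1.07, SE 0.09).

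These 3 lists differed less between OSR2 and the other factors. Against EGR1, KLF2 and KLF4 the medians were -0.07 for glycolysis and hypoxia (5 higher, 7 lower), -0.08 for amino acid stress (2 higher, 5 lower) and -0.13 for chaperones (0 higher, or 1 without EGR1 replicate 2, and 5 lower). LDHA (0.10) and HSPA5 (-0.14) were not called, whereas NDRG1 (-0.95), P4HA2 (-0.80) and STC2 (-0.55) were lower. These counts moved with single libraries: without OSR2 replicate 2 the lower members were 1 for amino acid stress and 3 for chaperones, and without KLF2 replicate 1 they were 10 for chaperones. Without OSR2 replicate 1 the amino acid stress list had 2 lower, and glycolysis had 2 higher, or 3 without OSR2 replicate 2.

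Ribosomal protein genes and genes of the respiratory chain were higher than in Control by small amounts. Of 76 ribosomal protein genes, 43 rose and 2 fell (1 without any of the 4 libraries), with a median of 0.36. Of 76 respiratory chain genes, 43 rose and 1 fell, with a median of 0.38. RPS18, of the small ribosomal subunit, had 421 and 522 CPM in OSR2, against 163 and 246 CPM in Control (log2 fold change 1.20, SE 0.25), and NDUFB2, of complex I, had 23.3 and 24.2 CPM in OSR2, against 5.51 and 8.48 CPM in Control (log2 fold change 1.76, SE 0.35). Both changes were well above the medians of their lists, and the 2 genes were picked after their values were seen. Relative to their mean, the Control libraries differed more from each other than the OSR2 libraries did in both genes. Without Control replicate 1 the rises numbered 19 and 28, with 2 respiratory falls, and without OSR2 replicate 2 the ribosomal rises numbered 23. Relative to EGR1, KLF2 and KLF4, 3 ribosomal genes were higher and 0 lower, and 1 respiratory gene was higher and 1 lower. There, the ribosomal rises numbered 1 without OSR2 replicate 1 or KLF4 replicate 1, 0 without OSR2 replicate 2 and 8 without KLF2 replicate 1. The respiratory rises numbered 4 without EGR1 replicate 2, 2 without KLF2 replicate 1 and 0 without OSR2 replicate 2, and the respiratory falls 7 without KLF2 replicate 1 and 0 without either OSR2 or KLF4 library, EGR1 replicate 1 or KLF2 replicate 2.

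Of 36 cell cycle genes, 10 were higher and 9 lower than in Control, close to the shares over all genes, with a median of -0.01. MCM5, of the replication helicase, had 103 and 134 CPM in OSR2, against 51.7 and 59.9 CPM in Control (log2 fold change 1.08, SE 0.20), and MKI67, a marker of dividing cells, had 101 and 83.4 CPM in OSR2, against 153 and 134 CPM in Control (log2 fold change -0.64, SE 0.13). Without Control replicate 1 the counts were 6 and 5. Compared with EGR1, KLF2 and KLF4, 0 were higher and 14 lower, and MCM5 was not called. DESeq2 called 22 lower in the same comparison. Without OSR2 replicate 1 the lower members in that comparison numbered 8. Of 29 interferon response genes, 9 rose and 4 fell, and 2 fell without Control replicate 1. TLR3, a sensor of double-stranded RNA, had 0.581 and 0.307 CPM in OSR2, against 6.23 and 5.22 CPM in Control (log2 fold change -3.67, SE 0.26), and TAP1, a peptide transporter, had 2.37 and 3.19 CPM in OSR2, against 0.506 and 0.908 CPM in Control (log2 fold change 1.96, SE 0.29). Compared with EGR1, KLF2 and KLF4, 8 were higher and 1 lower, with 2 higher without either OSR2 library, 5 without KLF2 replicate 1 or either KLF4 library, and 2 lower without OSR2 replicate 2 or EGR1 replicate 2.

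**Figure D5:**
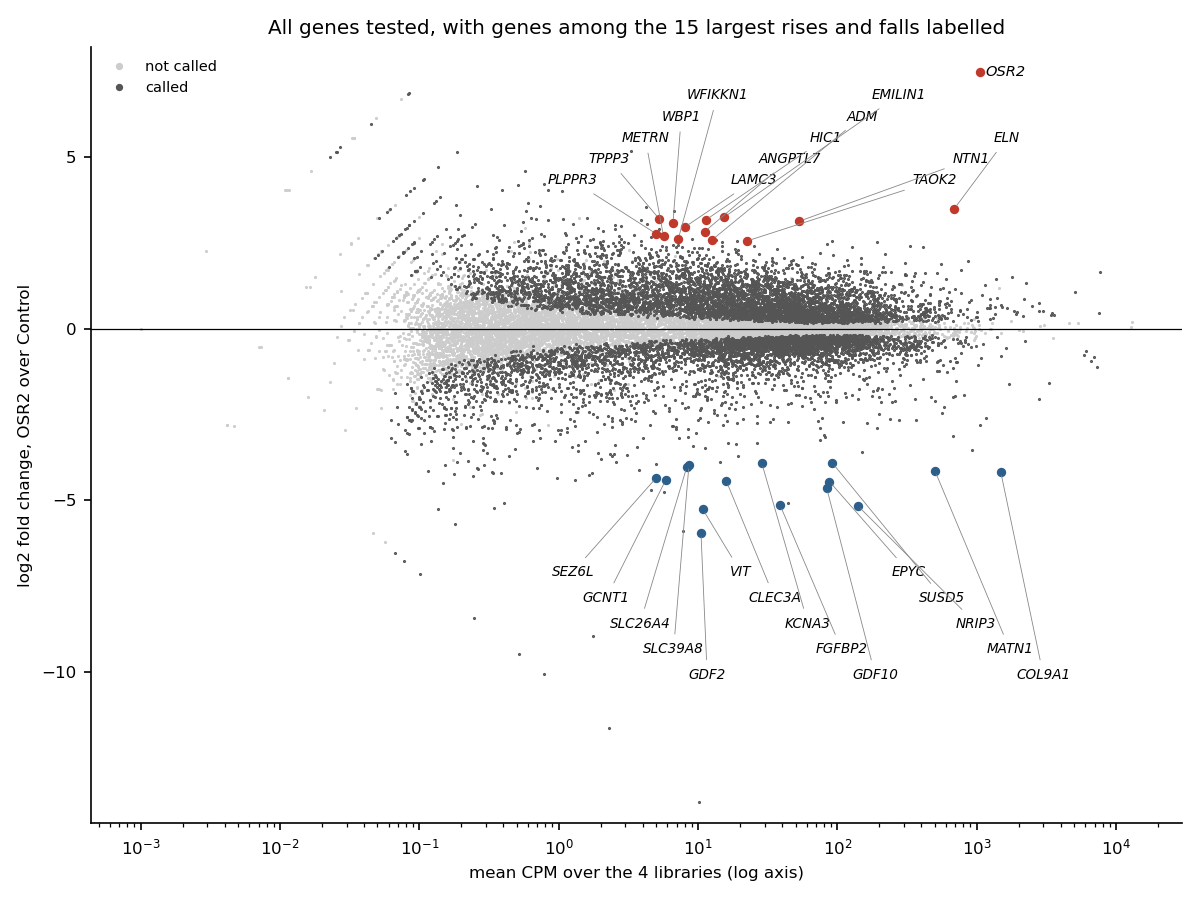
Log2 fold change of OSR2 over Control against mean CPM over the 4 libraries (log axis) for the 18979 genes tested, called genes darker, with genes among the 15 largest rises and the 15 largest falls under the rule for named genes labelled. OSR2 has the largest value (7.47), the labelled falls reach -5.94 at GDF2, and unlabelled genes farther from 0 than the labelled ones lie mostly at low mean CPM.

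The largest changes were ranked over called genes that have a symbol, average 5 CPM or more and show no overlap between the groups, a filter that 6527 genes passed (3648 higher, 2879 lower). The 15 largest rises included, in order, OSR2, ELN, EMILIN1, TPPP3, HIC1, NTN1, WBP1, LAMC3, ANGPTL7, PLPPR3, METRN, WFIKKN1, ADM and TAOK2. HIC1, a zinc-finger repressor found in mesenchymal progenitors, had 16.9 and 23.7 CPM in the OSR2 libraries, against 1.63 and 2.89 CPM in the Control libraries (log2 fold change 3.16, SE 0.61, adjusted p = 0.004). TPPP3, a tubulin-binding protein known from tendon sheath cells, had 8.98 and 9.99 CPM in the OSR2 libraries, against 1.01 and 1.06 CPM in the Control libraries (log2 fold change 3.19, SE 0.20, adjusted p = 1.4e-06). ANGPTL7, an angiopoietin-like secreted protein, had 18.2 and 20.9 CPM in OSR2, against 2.48 and 3.02 CPM in Control (log2 fold change 2.83, SE 0.15). WFIKKN1, a secreted inhibitor of myostatin-like ligands, had 12.4 and 12.3 CPM in OSR2, against 1.8 and 2.25 CPM in Control (log2 fold change 2.61, SE 0.33). The call of WBP1 was lost without Control replicate 1 (2.64, adjusted p = 0.070), and its log2 fold change was 3.78 without Control replicate 2. Over the mean of EGR1, KLF2 and KLF4, TPPP3 stood at 1.74 and ADM at 1.89, both called, and HIC1 was not called.

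The 15 largest falls were, in order, GDF2, VIT, NRIP3, FGFBP2, GDF10, EPYC, CLEC3A, GCNT1, SEZ6L, COL9A1, MATN1, SLC26A4, SLC39A8, SUSD5 and KCNA3. VIT, or vitrin, a matrix protein, had 0.475 and 0.626 CPM in the OSR2 libraries, against 21.4 and 20.7 CPM in the Control libraries (log2 fold change -5.25, SE 0.32, adjusted p = 3.1e-06). NRIP3, a nuclear receptor interacting protein, had 8.43 and 6.83 CPM in the OSR2 libraries, against 277 and 267 CPM in the Control libraries (log2 fold change -5.15, SE 0.25, adjusted p = 4.6e-06). SUSD5, a membrane protein that binds hyaluronan, had 12.4 and 10.6 CPM in OSR2, against 172 and 171 CPM in Control (log2 fold change -3.90, SE 0.16). The zinc and manganese transporter SLC39A8 had 1.13 and 0.933 CPM in OSR2, against 16.6 and 15.8 CPM in Control (log2 fold change -3.96, SE 0.14), the potassium channel KCNA3 had 4.18 and 2.98 CPM in OSR2, against 51.8 and 55.3 CPM in Control (log2 fold change -3.90, SE 0.22), and the anion transporter SLC26A4 had 0.835 and 1.1 CPM in OSR2, against 16.6 and 14.7 CPM in Control (log2 fold change -4.02, SE 0.20). In the comparison with EGR1, KLF2 and KLF4 these stood at -4.03 for VIT, -4.25 for NRIP3, -2.58 for SUSD5, -1.59 for SLC39A8, -3.18 for KCNA3 and -1.51 for SLC26A4, all called.

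Set against OSR1, the libraries of the paralog, 2 of 18979 genes (0.0105%) were called, 1 higher (0.00527%) and 1 lower (0.00527%), and both were inserts. OSR2 was higher in OSR2 libraries (log2 fold change over OSR1 6.48, SE 0.15), and OSR1 was lower (-9.01, SE 0.19). At an unadjusted p under 0.05 there were 729 of the 18979 genes, fewer than that threshold passes on average where no gene differs. Few calls do not show that the 2 factors act alike. The 2 OSR1 libraries differed from each other more than the libraries of any other group (correlation of log2 CPM 0.9887, against 0.9942 in OSR2). The calls of DESeq2 lay almost all on 1 side, with 1 higher and 34 lower in OSR2. DESeq2 called 35, and with 1 OSR1 library left out edgeR called 103 (replicate 1 out) or 8 (replicate 2 out). MATN1, COL9A1, GDF2 and SOX9 had point estimates below 0 in this comparison and ELN one above it, without passing the test. For MATN1, COL9A1 and GDF2 this depended on the tool or on single libraries. DESeq2 called MATN1 (adjusted p = 1.3e-08), COL9A1 (adjusted p = 5.2e-04) and GDF2 (adjusted p = 8.9e-05) lower in OSR2. With edgeR, MATN1 was called without OSR1 replicate 1 (-1.08, adjusted p = 0.030) and without OSR1 replicate 2 (-1.81, adjusted p = 0.0065), and in a fit blocked by replicate number (-1.47, adjusted p = 0.027), and COL9A1 without OSR1 replicate 2 (-1.38, adjusted p = 0.0065). MATN1 had 57.7 and 49.9 CPM in OSR2, against 189 and 114 CPM in OSR1, and a log2 fold change over OSR1 of -1.49 (95% interval -2.04 to -0.95). COL9A1 had 168 and 146 CPM in OSR2, against 408 and 238 CPM in OSR1, and -1.04 (95% interval -1.54 to -0.54). GDF2 had 0.37 and 0.295 CPM in OSR2, against 0.994 and 0.831 CPM in OSR1, and -1.45 (95% interval -1.90 to -0.99). ELN had 1208 and 1324 CPM in OSR2, against 768 and 1175 CPM in OSR1, and 0.38 (95% interval -0.18 to 0.94), and SOX9 had 106 and 93.6 CPM in OSR2, against 121 and 155 CPM in OSR1, and -0.47 (95% interval -0.79 to -0.15). These intervals were built from the SE and are not adjusted for the number of genes.

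Against the mean of EGR1, KLF2 and KLF4, the 5 largest rises under the same filters were OSR2, PTPRO, NEFL, PCSK2 and PPFIA2, and the 5 largest falls FGFBP2, LOXL4, GDF2, NRIP3 and TRPV4. PTPRO, a receptor tyrosine phosphatase, had 24.7 and 20 CPM in the OSR2 libraries, against means of 4.66 in EGR1, 3.06 in KLF2 and 2.46 in KLF4 (log2 fold change 2.77, SE 0.12, adjusted p = 1.7e-07). NEFL, a neurofilament chain, had 28.2 and 22.2 CPM, against 4.82, 3.93 and 6.33 (log2 fold change 2.35, SE 0.13). PCSK2, a prohormone convertase, had 47.4 and 41 CPM, against 11.8, 8.77 and 6.37 (log2 fold change 2.34, SE 0.10). That the OSR2 libraries lay above all EGR1, KLF2 and KLF4 libraries in these 3 genes was a condition of the filter. The OSR1 libraries were high as well, with 20.7 and 20.6 CPM for PTPRO, 16.6 and 21.6 CPM for NEFL and 39 and 36 CPM for PCSK2. TRPV4, a calcium channel of chondrocytes, had 3.12 and 3.43 CPM, against 28.6 in EGR1, 79 in KLF2 and 87.7 in KLF4 (log2 fold change -4.16, SE 0.18). Over Control its log2 fold change was -3.37. LOXL4 had 0.771 and 0.768 CPM, against 6.32, 18.9 and 35 in the same groups and 1.39 and 2.58 CPM in Control, so its difference from the factors is that of libraries in which LOXL4 was above Control.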

How the data were processed

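Counts per feature in the 12 libraries are raw read counts as deposited by the authors, with no normalization, from stranded poly(A)-selected RNA libraries sequenced as paired ends of 50 bases, per the labels' protocols. TopHat2, SAMtools, featureCounts, DESeq2 and the build galGal4 appear in the submitters' processing notes. Not given in the sources used here are versions, the annotation, the strand setting of the counting and filters, so reads of overlapping and antisense genes may not be separated. Of the 21350 listed features 13763 carry a RefSeq symbol and 308 more a synonym, and the rest are used as listed.

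Features with enough counts (filterByExpr of edgeR 4.0.16, minimum count 10, R 4.3.3) were scaled by TMM (factors 0.9521 to 1.041) and fitted in 1 model with a term per group over all 12 libraries, so that all groups share 1 estimate of the spread (6 residual degrees of freedom). Contrasts were tested with the robust quasi-likelihood test and Benjamini-Hochberg adjustment over all features tested. The same code was also run on simulated data with the same spread for every gene, which gives no error rates for these data. With totals of 51233721 counts or more per library, the 2 libraries per group and not counting error limit the precision for genes with many counts. In genes of low CPM, counting error adds to the spread. The comparison, the lists and the rule for named genes were chosen with earlier results of these data known. Named are the 5 inserted genes, the 15 largest rises and falls, of each list the first 3 members and the 5 most significant called ones, and the 5 largest differences each way against the other references. Further members were named beside their list's counts after their values were seen. Inserted genes are left out of list counts. Some genes stand in more than 1 list and are counted in each. Some genes that the rule or a list holds are counted but not reported here. Replicate differences were compared between groups, and the main fit does not pair the samples by replicate number. Alternatives were RLE size factors, library totals alone, no filter, DESeq2 1.42.0, the compared libraries alone, a replicate block, thinning all libraries to the smallest total, a test against a 1.5-fold change and each library left out. A fit without both Control libraries was chosen after seeing the data. Figures were drawn with matplotlib 3.10.9.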

Additional observations from a re-analysis of the deposited data

How the results depend on the processing

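For OSR2 over Control, 9853 genes were called, and the count ran from 9373 to 10312 with RLE size factors, library totals alone, no filter, thinned counts, DESeq2 or only the 4 libraries compared. A test against a 1.5-fold change called 2972 genes, by construction fewer. Leaving out 1 library at a time gave 6362 to 8500 genes. For OSR2 over EGR1, KLF2 and KLF4, 4686 genes were called, with 1028 in the test against a 1.5-fold change, 2565 to 5255 with 1 library left out, and 4294 without both Control libraries, a fit chosen after seeing the data. For OSR2 over OSR1, 2 genes were called, with 35 by DESeq2 and 2 to 103 with 1 library left out, where the cause was not tested. With 1 library left out, the lone library of a group is assumed to vary like the other groups. Differences between replicates 1 and 2 correlated over 0.1 in 4 of 15 pairs of groups (range -0.29 to 0.22). For OSR2 and Control the correlation was 0.11. Such weak correlations cannot tell whether libraries with the same replicate number share a batch. With the replicate number as a block the counts were 9386, 4242 and, for OSR1, 5. Of 252 named genes called against Control, 233 were called again without Control replicate 1 and 234 without OSR2 replicate 2, and none of them changed sign in any of the 12 alternatives. The test against a 1.5-fold change, stricter by construction, called 200 of the 252. Among named genes not called, GDF5 (0.01) stood at -0.028 with RLE factors, library totals or DESeq2, at -0.03 with only the libraries compared, at -0.004 with thinned counts and between -0.18 and 0.18 with 1 library left out. With 1 library left out TBX5 ran from -0.08 to 0.16, and SOX10, with under 20 counts per library, from -1.92 to 0.84.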

Other observations

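A set of 3 features had counts in the Control libraries and 0 counts in both OSR2 libraries and in the 8 libraries with other inserts. An observed count of 0 still allows an expected count of up to 3 in a library. The 3 features were chosen after their values were seen. The unnamed feature uPROT_001676 had 0 and 0 counts in the OSR2 libraries, against 1859 and 362 counts in the Control libraries. The feature listed as COI, the usual symbol of a mitochondrial cytochrome oxidase subunit, had 0 and 0 counts in OSR2, against 414 and 86 in Control. ADH4, a symbol of an alcohol dehydrogenase, had 0 and 0 counts in OSR2, against 137 and 34 in Control. In all 3 features Control replicate 1 had several times the counts of Control replicate 2, although it was the shallower library. No fold change is given for them.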
